A study of Mus musculus with 4 samples.

Results

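The genes described here are 5 genes of the earliest committed stage of neutrophil formation, *Mpo*, *Elane*, *Prtn3*, *Ctsg* and *Ms4a3*. They were taken by name, and each was found once among the 28585 genes listed. They were measured by bulk RNA sequencing in polymorphonuclear myeloid-derived suppressor cells (PMN-MDSCs), suppressive cells of the neutrophil lineage, which were sorted as CD11b+ Ly6Clo/- Ly6G+ cells from neonatal spleen at postnatal day 7. The 4 libraries, each made from 300000 cells, comprised 2 from *DhpsΔLysm* pups (*Dhps fl/fl Lysm cre*, labelled Dhps cko) and 2 from *Dhps fl/fl* littermates (labelled Dhps flox), on a C57BL/6J background and with no treatment named. Both groups carried the floxed alleles of *Dhps*, which encodes deoxyhypusine synthase, the enzyme that starts the hypusine modification of the translation factor eIF5A. The Cre is driven by the *Lysm* (*Lyz2*) locus, which is active across myeloid cells, so that the deletion is confined neither to PMN-MDSCs nor to one stage of their formation. It is not stated whether a library came from 1 pup or from several pooled pups, and pups of both sexes were used in the study, so the p-values below measure only the spread between these libraries, which may be technical.

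Neutrophils fill their granules in the order in which the granule proteins are made. The primary, or azurophil, granules are filled at the promyelocyte stage with myeloperoxidase and a set of serine proteases, and transcription of these genes is shut down as the cell becomes a myelocyte and turns to the secondary granule proteins, such as lactoferrin. Transcripts of the primary granule genes are therefore commonly read as a measure of the earliest stages in a neutrophil population, whereas the proteins persist into the mature cell. *Mpo*, *Elane*, *Prtn3* and *Ctsg* encode proteins of the granule content. *Ms4a3* encodes a membrane protein and not a granule content protein, and is a marker of granulocyte-monocyte progenitors and promyelocytes.

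Sequences just upstream of the genes are shown because the ETS core GGAAGT occurred near the start of each of them. The myeloid regulator PU.1 and other ETS factors bind to these letters. Whether the letters bear on the level of the genes in any library was not tested. The promoter windows were those of RefSeq on GRCm38.p6, from 250 bases before to 50 bases after each annotated start, with 5 of 5 genes matched. On either strand, the 6 letters were found in 5 of the 5 windows, against 23.77% of all 32851 windows. The motif was picked for its presence in each of the 5 windows, so the 5 of 5 is no test against that share. The 5 stretches of 30 bases below are read 5′ to 3′ along the strand of the gene, with GGAAGT in capitals.
Mpo, chr11:87793550-87793579, plus strand: tggagagagagaGGAAGTtgcctttgtccc
Elane, chr10:79886217-79886246, plus strand: gtgtcccagggaGGAAGTagggctgtggcc
Prtn3, chr10:79879562-79879591, plus strand: aaactggaaggaGGAAGTgggacccacagc
Ctsg, chr14:56102762-56102791, minus strand: agaggaagaaaaGGAAGTagtcacctgttt
Ms4a3, chr19:11640889-11640918, minus strand: tggtatacttggGGAAGTgggtgggccatt
The capitals began 222 bases before the RefSeq start of *Mpo*, 83 before that of *Elane*, 93 before that of *Prtn3*, 205 before that of *Ctsg* and 55 before that of *Ms4a3*. Other motifs were shared less widely. The MYB core AACNG was present in 4 windows, all but that of *Ms4a3*, but also in 80.29% of all windows. The C/EBP core TTNNGNAA occurred only in the window of *Ms4a3* (40.68% of all windows), the RUNX core TGTGGT only in that of *Ctsg* (16.76%), and the letters TATAA in those of *Elane*, *Prtn3* and *Ctsg* (24.87%). Of the 6 GGAAGT matches of the 5 genes, 1, in *Ms4a3*, overlapped a match of another of these motifs. A match of letters is a description and does not show binding.

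*Elane* and *Prtn3* are neighbours on chromosome 10, on the same strand and 3073 bases apart, with *Prtn3* first. Their upstream bases are shown in full for this reason, 185 bases for *Elane* and 197 for *Prtn3*, with GGAAGT again in capitals. Each ends where the GENCODE M21 transcript with 5 exons begins. For *Prtn3* this lies within the annotated span of the gene, because another annotated transcript starts farther upstream and has the printed bases in its first intron.
Elane, chr10:79886062-79886246, plus strand: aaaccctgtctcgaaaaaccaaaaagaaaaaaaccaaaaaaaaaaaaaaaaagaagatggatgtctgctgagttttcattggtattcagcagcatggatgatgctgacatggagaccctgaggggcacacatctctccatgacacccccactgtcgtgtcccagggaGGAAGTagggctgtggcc
Prtn3, chr10:79879417-79879613, plus strand: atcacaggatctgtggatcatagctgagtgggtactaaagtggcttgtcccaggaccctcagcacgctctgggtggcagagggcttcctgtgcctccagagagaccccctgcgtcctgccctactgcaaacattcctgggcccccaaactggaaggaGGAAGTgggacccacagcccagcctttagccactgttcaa
The longest runs of letters that the promoter windows of this neighbouring pair had in common were 9 bases long, TGTCCCAGG among them. Across the 10 pairs of the 5 genes the longest shared run was between 8 and 11 bases. The neighbouring pair was therefore neither the most nor the least alike by this measure.

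The 5 genes were measured at low to moderate levels in every library. Levels are given as FPKM, the fragments of a gene scaled by its length and by the mapped fragments of the library, so that they can be set beside each other between genes. The genotype difference is given as the log2 fold change of *DhpsΔLysm* against *Dhps fl/fl* on log2(FPKM + 0.1), from limma across 17948 genes with the Benjamini-Hochberg adjustment. *Mpo* encodes myeloperoxidase, the heme enzyme that makes hypochlorous acid from hydrogen peroxide and chloride (ENSMUSG00000009350, 14 exons, chr11:87793581-87804413, plus strand, in GENCODE M21 on GRCm38). Its level was 17.5 FPKM in replicate 1 and 11.03 FPKM in replicate 2 of *DhpsΔLysm*, and 7.56 and 11.13 FPKM in replicates 1 and 2 of *Dhps fl/fl*. *DhpsΔLysm* replicate 1 stood highest and *Dhps fl/fl* replicate 1 lowest, while the other 2 libraries, of different genotype, were almost level, so the genotypes overlapped. The log2 fold change was 0.59 (SE 0.28, 95% interval -0.13 to 1.32), and the limma adjusted p was 0.766.

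*Elane* encodes neutrophil elastase, a serine protease that degrades matrix and bacterial proteins (ENSMUSG00000020125, 5 exons, chr10:79886247-79888215, plus strand). Its levels in *DhpsΔLysm* were 23.82 and 13.86 FPKM, and those in *Dhps fl/fl* were 9.76 and 15.37 FPKM. The libraries fell in the same order as for *Mpo*, and *Dhps fl/fl* replicate 2 lay above *DhpsΔLysm* replicate 2. The log2 fold change was 0.57 (SE 0.33, 95% interval -0.28 to 1.41), with a limma adjusted p of 0.786.

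*Prtn3* encodes proteinase 3, a protease closely related to elastase (ENSMUSG00000057729, 5 exons, chr10:79874476-79883174, plus strand). Its levels were 13.24 and 7.72 FPKM in *DhpsΔLysm* and 6.54 and 7.19 FPKM in *Dhps fl/fl*. It was the only one of the 5 genes with both *DhpsΔLysm* libraries above both *Dhps fl/fl* libraries, although *DhpsΔLysm* replicate 2 exceeded the higher *Dhps fl/fl* library by little. Such a separation upward was found for 20.0% of all genes tested, so that 1 of 5 is the share of the background. The log2 fold change of *Prtn3* was 0.55 (SE 0.26, 95% interval -0.11 to 1.22; limma adjusted p = 0.766). Of its exon bases, 9.18% overlap *Plppr3* on the other strand, which was listed at 1.21 to 2.08 FPKM, and whether the counting used strand is not given in the sources used here. For *Mpo* the overlap was 14.95% of exon bases, with *Gm11505*, which did not exceed 0.07 FPKM.

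*Ctsg* encodes cathepsin G, the protease with chymotrypsin-like activity of the same granules (ENSMUSG00000040314, 5 exons, chr14:56099881-56102574, minus strand). It was the lowest of the set, at 2.3 and 1.35 FPKM in *DhpsΔLysm* and 1.48 and 1.34 FPKM in *Dhps fl/fl*. Only *DhpsΔLysm* replicate 1 stood apart, and the other 3 libraries lay within 1.34 to 1.48 FPKM. The log2 fold change was 0.31 (SE 0.27, 95% interval -0.40 to 1.01; limma adjusted p = 0.85). The level of *Ctsg* corresponds to about 40 to 76 fragments per library, for which counting error alone gives a coefficient of variation of 11.48% to 15.86%. For the other 4 genes it is between about 210 and 1580 fragments.

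*Ms4a3* (ENSMUSG00000024681, 7 exons, chr19:11629496-11640851, minus strand) varied least. It was measured at 24.39 and 20.55 FPKM in *DhpsΔLysm*, against 20.94 and 21.5 FPKM in *Dhps fl/fl*. *DhpsΔLysm* held both the highest and the lowest library, and the 4 values spanned 1.19-fold. The log2 fold change was 0.08 (SE 0.10, 95% interval -0.17 to 0.33; limma adjusted p = 0.907). The upper bound of this interval lies below the estimates for *Mpo*, *Elane* and *Prtn3*, whose own intervals are wider and include it. The difference between the genes in their genotype effect was not tested.

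**Figure D1:**
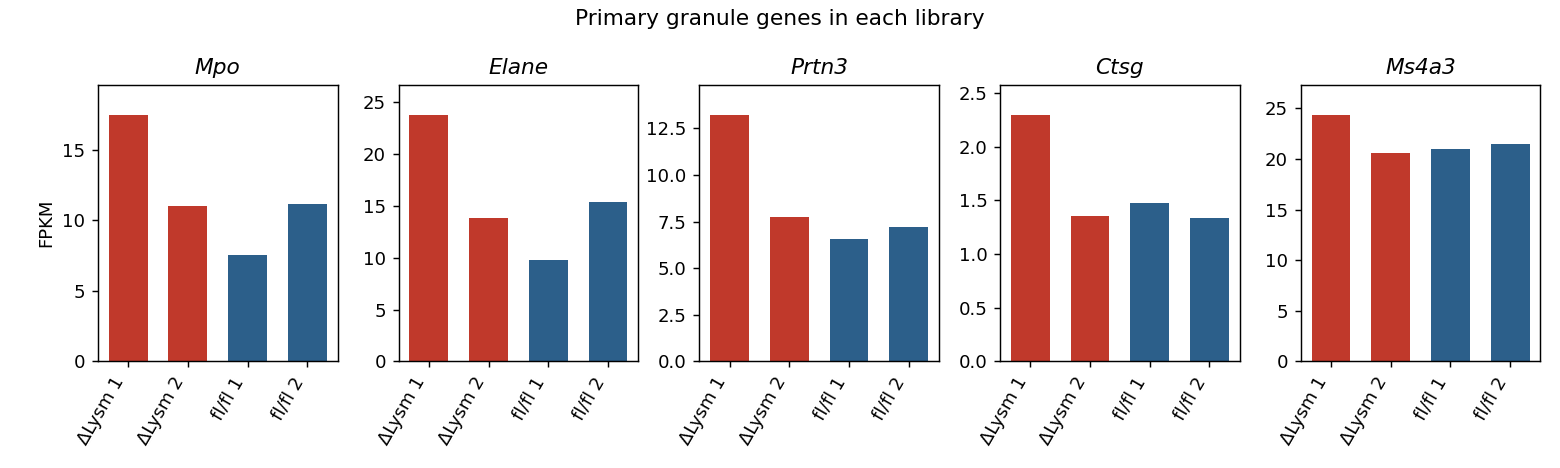
Level of each primary granule gene in each library. Each bar is 1 library, red for *DhpsΔLysm* and blue for *Dhps fl/fl*, with FPKM on a linear vertical axis that starts at 0 and has its own scale in each panel. In each of the 5 panels *DhpsΔLysm* replicate 1 is the highest library, from 2.3 FPKM for *Ctsg* to 24.39 FPKM for *Ms4a3*, and for *Mpo*, *Elane* and *Ms4a3* *Dhps fl/fl* replicate 2 is above *DhpsΔLysm* replicate 2.

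No genotype difference passed the test for any of the 5 genes. By limma, 0 of 5 had an adjusted p under 0.05, against 0.00557% of all genes tested, which is 1 gene of 17948. That gene was *Gm20716*, named after its values were seen, at 5.6 and 5.75 FPKM in *DhpsΔLysm*, while each *Dhps fl/fl* library lists it at 0. At an unadjusted p under 0.05 by limma the count was also 0 of 5, against 7.0% of all genes. Each of the 5 log2 fold changes was above 0, a direction shared by 52.2% of all genes. Their median was 0.55, beside 0.01 for all genes tested. In terms of group means, *DhpsΔLysm* was at 153% of the *Dhps fl/fl* mean for *Mpo* and *Prtn3*, 150% for *Elane*, 129% for *Ctsg* and 106% for *Ms4a3*.

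These differences rested in large part on *DhpsΔLysm* replicate 1. Without that library, the log2 fold change fell to 0.26 for *Mpo*, 0.18 for *Elane* and 0.17 for *Prtn3*, and it was -0.057 for *Ctsg* and -0.046 for *Ms4a3*. Only 3 of 5 genes were then above 0, and the median was 0.17. Without *DhpsΔLysm* replicate 2 in its place, the values were 0.92 for *Mpo*, 0.95 for *Elane*, 0.94 for *Prtn3*, 0.67 for *Ctsg* and 0.20 for *Ms4a3*. *Dhps fl/fl* replicate 1 also moved *Mpo* and *Elane*, which were at 0.32 and 0.24 without it, and *Dhps fl/fl* replicate 2 brought *Mpo* and *Elane* to 0.87 and 0.89 when it was left out. In each of these fits 1 genotype has a single library, which is assumed to vary like the others, and no gene of the set had an adjusted p below 0.562.

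**Figure D2:**
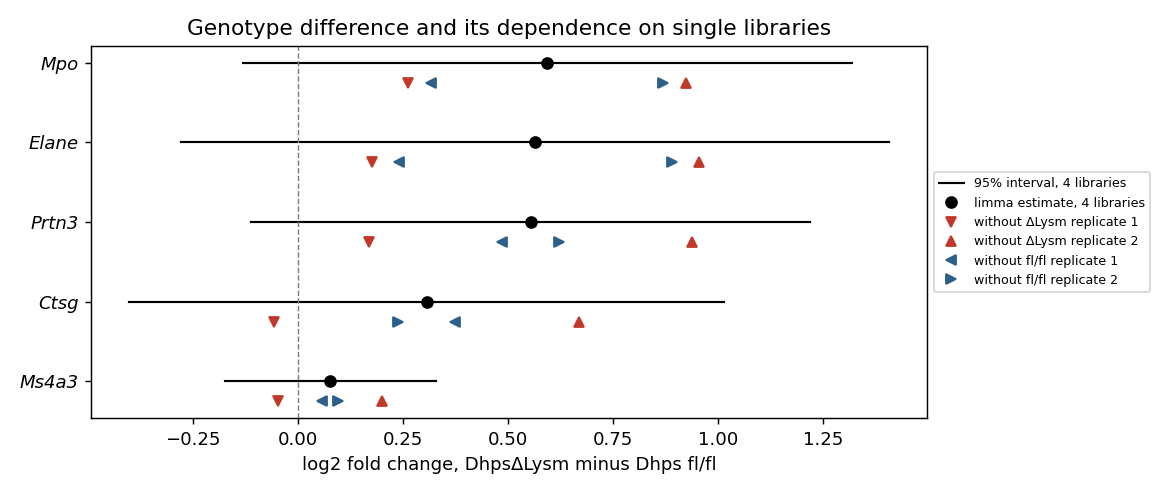
Genotype difference of each primary granule gene, as the log2 fold change of *DhpsΔLysm* against *Dhps fl/fl* on log2(FPKM + 0.1). Black points are the limma estimates from the 4 libraries and black lines their 95% intervals, and the triangles under each line are the estimates with 1 library left out (red for a *DhpsΔLysm* library, blue for a *Dhps fl/fl* library). The 5 intervals include 0, and the estimate without *DhpsΔLysm* replicate 1 is the lowest of each gene, from -0.057 to 0.26.

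The difference between the 2 *DhpsΔLysm* libraries was as large as that between the genotypes. *DhpsΔLysm* replicate 1 exceeded replicate 2 by 1.59-fold for *Mpo*, 1.72-fold for *Elane*, 1.72-fold for *Prtn3* and 1.70-fold for *Ctsg*, but by 1.19-fold for *Ms4a3*. Thus 4 of the 5 genes differed by at least 1.5-fold within this genotype, and all 4 were higher in replicate 1. Among the 10629 genes averaging 1 FPKM or more, 457 (4.3%) differed by as much between these libraries, and 2.64% did so with replicate 1 higher. Between the *Dhps fl/fl* libraries, where 5.19% of genes differed to this extent, 1 of the 5 genes did: *Elane* was 1.57-fold higher in replicate 2 than in replicate 1. *Mpo* was 1.47-fold higher in that replicate, *Prtn3* 1.10-fold and *Ms4a3* 1.03-fold, whereas *Ctsg* was 1.10-fold higher in replicate 1. For *Mpo* the spread over the 4 libraries was 2.32-fold, for *Elane* 2.44-fold, for *Prtn3* 2.02-fold and for *Ctsg* 1.72-fold.

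*Mpo* and *Elane*, on different chromosomes, had the most similar course over the libraries. When each gene was centred on its mean log2 level, the distance between their profiles over the 4 libraries (Euclidean, log2 units) was 0.111. The neighbouring genes *Elane* and *Prtn3* were 0.364 apart, *Mpo* and *Prtn3* 0.308, and *Prtn3* and *Ctsg* 0.313. *Ms4a3* was 0.753 from *Elane*, 0.696 from *Mpo*, 0.608 from *Prtn3* and 0.428 from *Ctsg*, and *Ctsg* was 0.613 from *Elane* and 0.565 from *Mpo*. In keeping with these distances, the level of *Elane* was between 1.26 and 1.38 times that of *Mpo* in every library, whereas *Elane* as a ratio to *Ms4a3* ranged from 0.466 in *Dhps fl/fl* replicate 1 to 0.977 in *DhpsΔLysm* replicate 1. With 4 libraries these distances are descriptions.

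The order of the levels per length was the same in 4 of 4 libraries, with *Ms4a3* highest, then *Elane*, *Mpo*, *Prtn3* and *Ctsg*. *Ms4a3* and *Elane* nearly met in *DhpsΔLysm* replicate 1, where their ratio was 1.02, and were farthest apart in *Dhps fl/fl* replicate 1, at 2.15. The ranges of *Ms4a3* and *Elane*, of *Elane* and *Mpo*, and of *Mpo* and *Prtn3* over the libraries overlapped, although the upper gene of each pair was higher in 4 of 4 libraries. *Ctsg* was separate, since *Prtn3* was between 4.42 and 5.76 times as high. By rank among all genes listed, *Ms4a3* stood between 1662 and 1953, *Elane* between 1708 and 3843, and *Ctsg* between 8357 and 9767.

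Set against the later granule genes, the primary granule genes were a trace of the transcriptome. The 5 genes summed to 81.25 and 54.51 FPKM in *DhpsΔLysm* and to 46.28 and 56.53 FPKM in *Dhps fl/fl*, which was between 0.0147% and 0.0258% of all FPKM. The 8 secondary granule genes summed to 46097.77 and 46117.13 FPKM in *DhpsΔLysm* and to 44892.02 and 43994.72 FPKM in *Dhps fl/fl*, or 14.2% to 14.7%. *Ngp*, which encodes neutrophilic granule protein, alone reached 26339.45 to 27901.98 FPKM, and *Ltf*, which encodes lactoferrin, 6259.39 to 6506.2 FPKM.

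The primary granule sum was therefore 0.176% and 0.118% of the secondary granule sum in *DhpsΔLysm*, and 0.103% and 0.128% in *Dhps fl/fl*. *DhpsΔLysm* replicate 1 was again highest, and *DhpsΔLysm* replicate 2 lay between the *Dhps fl/fl* libraries. The genotypes differed in this ratio by 0.33 on the log2 scale, no more than the standard deviation between libraries of a genotype (0.329). Without *Ms4a3*, which encodes no granule content protein, the ratio was 0.123% and 0.0736% in *DhpsΔLysm* against 0.0564% and 0.0796% in *Dhps fl/fl*. The genotypes still overlapped, and the log2 difference was 0.51 beside a standard deviation of 0.447. With *Ms4a3* included, the difference was 0.04 without *DhpsΔLysm* replicate 1 and 0.61 without *DhpsΔLysm* replicate 2, and 0.17 without *Dhps fl/fl* replicate 1. Relative to the 12 genes of tertiary granules and mature neutrophils, the primary granule sum was 1.8% and 1.1% in *DhpsΔLysm* and 1.01% and 1.35% in *Dhps fl/fl*. In bulk samples, a larger share of early cells and more of these transcripts per early cell cannot be told apart.

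**Figure D3:**
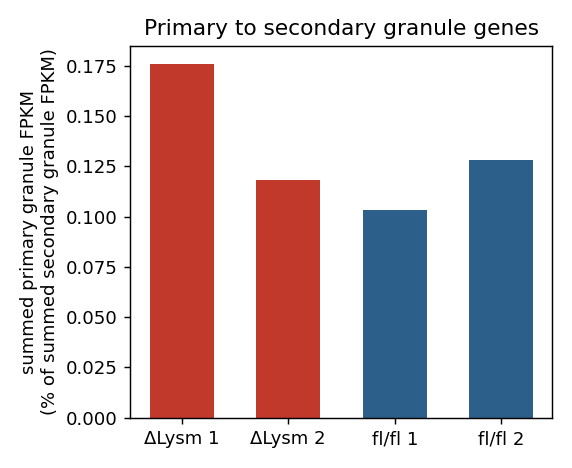
Summed FPKM of the 5 primary granule genes as a percentage of the summed FPKM of the 8 secondary granule genes. Each bar is 1 library, red for *DhpsΔLysm* and blue for *Dhps fl/fl*, on a linear axis from 0. The ratio is highest in *DhpsΔLysm* replicate 1, at 0.176%, and lies between 0.103% and 0.128% in the other 3 libraries.

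Other genes of primary granule formation were compared in the same way. Among genes that process or pack the granule contents, 11 of 12 listed were tested (*Bpi* fell below the level filter), 7 had a log2 fold change above 0 (52.2% of all genes), 2 had an unadjusted p under 0.05 by limma (7.0% of all genes) and 0 passed the adjusted test, with a median of 0.04. Of the 11, 4 had both *DhpsΔLysm* libraries above both *Dhps fl/fl* libraries (*Ctsc*, *Srgn*, *Cd63* and *Hexa*), against 20.0% of all genes. *Prss57*, a further serine protease of the azurophil granule, was between 5.26 and 6.04 FPKM in the 4 libraries, with a log2 fold change of -0.01, and *DhpsΔLysm* replicate 1 did not stand apart. *Ctsc*, which encodes the dipeptidyl peptidase that activates elastase, proteinase 3 and cathepsin G, was at 10.64 and 10.45 FPKM in *DhpsΔLysm* against 8.75 and 8.09 FPKM in *Dhps fl/fl*, without overlap (log2 fold change 0.32, unadjusted p = 0.00956, limma adjusted p = 0.539). *Hexa*, a lysosomal hexosaminidase subunit, was the other gene of the list at an unadjusted p under 0.05 by limma, with a log2 fold change of 0.18 (adjusted p = 0.626).

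Of the inhibitors of these proteases, 3 of 6 were tested, since *Serpina1a*, *Serpina1b* and *A2m* were too low and *Serpina1b* was listed at 0 in each library. *Serpinb1a*, the inhibitor of elastase, proteinase 3 and cathepsin G in the neutrophil cytosol, was far higher per length than the 3 proteases, at 225.97 and 225.51 FPKM in *DhpsΔLysm* and 210.15 and 202.8 FPKM in *Dhps fl/fl*. *Slpi*, the secretory leukocyte protease inhibitor, reached 102.2 to 125.79 FPKM with overlapping genotypes. The median log2 fold change of the 3 inhibitors was 0.13, and 3 of 3 were above 0 (52.2% of all genes). By limma, 0 of 3 had an unadjusted p under 0.05 (7.0% of all genes) and 0 of 3 passed the adjusted test (0.00557%). For 1 of the 3, *Serpinb1a*, both *DhpsΔLysm* libraries were above both *Dhps fl/fl* libraries, as for 20.0% of all genes.

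The transcription regulators of the promyelocyte were present. Of 11 tested, 9 had a log2 fold change above 0, 2 had an unadjusted p under 0.05 by limma, 0 passed the adjustment, and the median was 0.05, where 52.2% of all genes were above 0 and 7.0% had such an unadjusted p. Both *DhpsΔLysm* libraries were above both *Dhps fl/fl* libraries for 3 of the 11, against 20.0% of all genes. *Cebpe*, required for the transition from promyelocyte to myelocyte, was the most abundant at 298.1 and 266.12 FPKM in *DhpsΔLysm* and 234.71 and 246.82 FPKM in *Dhps fl/fl* (unadjusted p = 0.0306, limma adjusted p = 0.652). *Cebpa*, which acts earlier and is needed for granulocyte commitment, was at 2.49 to 2.9 FPKM, *Myb* at 6.18 to 7.02 FPKM and *Gfi1* at 8.08 to 10.06 FPKM, each with overlapping genotypes. *Spi1*, which encodes PU.1, was between 135.42 and 154.5 FPKM. *Myc* was the other gene at an unadjusted p under 0.05, with 1.6 and 1.44 against 1.07 and 1.09 FPKM (limma adjusted p = 0.683).

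Progenitor and cell cycle genes gave another view of early cells. Of 8 progenitor markers, 3 had a log2 fold change above 0 (*Flt3* 0.57, *Plac8* 0.34 and *Sox4* 0.31), against 52.2% of all genes, and the median was -0.01. The same 3 had both *DhpsΔLysm* libraries above both *Dhps fl/fl* libraries, as did 20.0% of all genes. *Kit*, the stem cell factor receptor, was at 4.12 and 3.5 FPKM in *DhpsΔLysm* and 3.89 and 4.69 FPKM in *Dhps fl/fl*, and *Cd34* did not exceed 0.29 FPKM. *Plac8* was the one progenitor marker at an unadjusted p under 0.05, with 59.64 and 62.74 against 50.63 and 45.83 FPKM (limma adjusted p = 0.488). Of 10 cell cycle markers, 3 were above 0 and the median was -0.02. For 2 of the 10, *Mki67* and *Top2a*, both *DhpsΔLysm* libraries were below both *Dhps fl/fl* libraries, and 0 were separated upward. Of all genes, 20.0% were separated upward and 36% in either direction. *Mki67*, which encodes the proliferation antigen Ki-67, was at 102.83 and 89.96 FPKM in *DhpsΔLysm*, against 107.23 and 108.39 FPKM in *Dhps fl/fl*. The 10 genes together summed to 441.25 and 404.67 FPKM in *DhpsΔLysm*, against 437.63 and 434.94 FPKM in *Dhps fl/fl*, so *DhpsΔLysm* replicate 1 was highest by little and replicate 2 lowest.

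Genes of the later stages were compared as well. For the secondary granule genes the median log2 fold change was 0.05, with 7 of 8 above 0. For the tertiary granule and mature neutrophil genes it was 0.13, with 11 of 12 above 0, where 52.2% of all genes were. Both *DhpsΔLysm* libraries were above both *Dhps fl/fl* libraries for 4 of the 8 and 4 of the 12, against 20.0% of all genes. In neither list did a gene pass the adjusted test, and *Cd101*, a marker of mature neutrophils, was the one gene at an unadjusted p under 0.05 by limma (log2 fold change 0.23, adjusted p = 0.629), as 7.0% of all genes were. In the mean of centred log2 levels, *DhpsΔLysm* replicate 1 stood 0.53 above the average of the libraries for the primary granule genes, but 0.03 above it for the secondary granule genes and 0.01 below it for the tertiary and mature genes. It also stood 0.42 above it for the T cell markers, 0.36 for the eosinophil markers and 0.28 for the B cell markers.

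**Figure D4:**
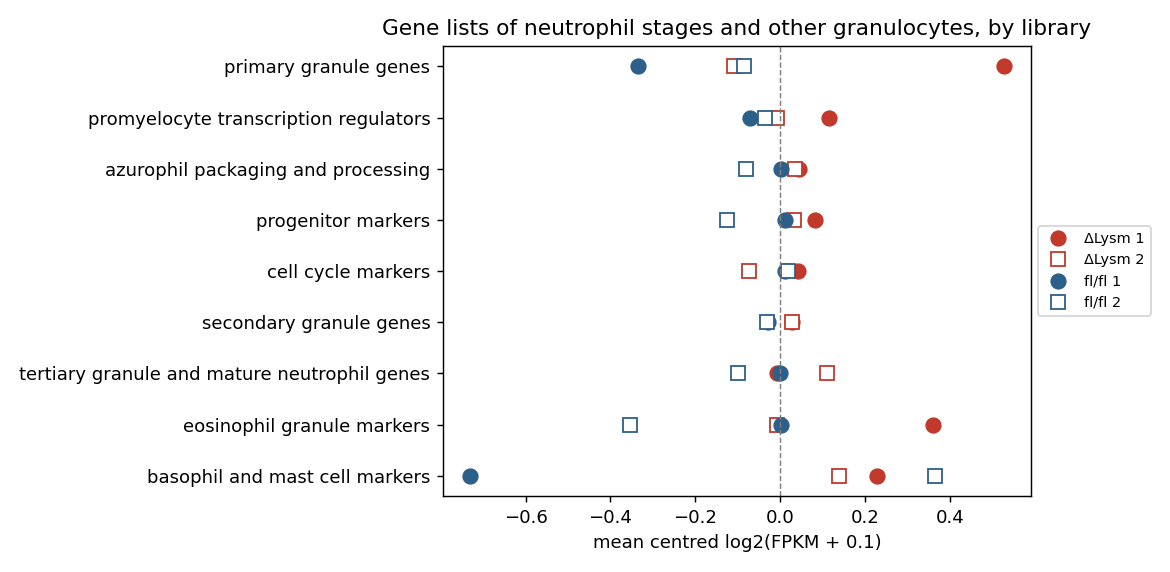
Mean centred level of each gene list in each library. The horizontal axis is the mean over a list's genes of log2(FPKM + 0.1) after subtracting each gene's mean over the 4 libraries, so 0 is the average library; red marks are *DhpsΔLysm*, blue marks *Dhps fl/fl*, filled circles replicate 1 and open squares replicate 2, and some marks cover each other. The primary granule genes spread from -0.33 in *Dhps fl/fl* replicate 1 to 0.53 in *DhpsΔLysm* replicate 1, while the secondary granule genes stay within -0.03 to 0.03.

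The genes next to the 5 genes on the chromosome were looked at for comparison. *Ptbp1*, 9705 bases before *Prtn3*, was at 42.83 and 38.48 FPKM in *DhpsΔLysm* and 37.87 and 43.62 FPKM in *Dhps fl/fl*, and *Cfd*, 2638 bases after *Elane*, did not exceed 0.81 FPKM. *Tspoap1*, 7653 bases from *Mpo*, was at 4.58 to 5.99 FPKM, and *Mks1*, on the other side of *Mpo*, at 0.21 to 0.36 FPKM. *Ctsg* lies 14608 bases from *Mcpt8*, which encodes a protease of basophils. *Mcpt8* was at 6.11 and 6.83 FPKM in *DhpsΔLysm*, against 1.78 and 5.13 FPKM in *Dhps fl/fl*, and so did not repeat the high value of *Ctsg* in *DhpsΔLysm* replicate 1. *Gzmc*, on the other side of *Ctsg*, did not exceed 0.06 FPKM. *Ms4a2*, 5777 bases from *Ms4a3* and encoding the beta chain of the IgE receptor of basophils and mast cells, was at 1.02 and 0.32 FPKM in *DhpsΔLysm* and 1.14 and 1.08 FPKM in *Dhps fl/fl*, and *Oosp1* was listed at 0 in each library.

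The 5 genes closest in profile to the mean of the primary granule genes, of 10624 compared, were *Gm42735*, *Gm22572*, *Gm10241*, *Snord89* and *Rpl10a-ps1*, at distances of 0.0711 to 0.132. None of them, 0 of 5, is annotated as protein coding: they are an unclassified locus, a small nuclear RNA, 2 processed pseudogenes and a small nucleolar RNA. *Gm10241*, the most abundant, was at 74.86 and 47.21 FPKM in *DhpsΔLysm*, against 42.89 and 52.92 FPKM in *Dhps fl/fl*. Values of pseudogenes share fragments with their parent genes and are uncertain. The nearest protein-coding gene, named after its values were seen, was *Pfdn6*, a prefoldin subunit, at a distance of 0.135. *Prtn3* itself was 0.183 from the mean profile to which it contributes, *Mpo* 0.277 and *Ms4a3* 0.464. Over 4 libraries a near profile can be met by many genes, and it is given as a description.

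In depth and in the number of genes detected the libraries were alike, with sums of 304281.1 to 319286.4 FPKM, approximately 29600000 to 32900000 fragments, and 10611 to 10729 genes at 1 FPKM or more. Markers of other cells and Y-linked genes differed between them, as given below. The sorted cells carried the defining neutrophil markers: the 6 genes *Ly6g*, *Itgam*, *S100a8*, *S100a9*, *Csf3r* and *Cxcr2* summed to 35367.75 and 37552.68 FPKM in *DhpsΔLysm* and 36207.54 and 32824.05 FPKM in *Dhps fl/fl*, with *Ly6g* at 222.16 and 241.58 against 194.95 and 184.8 FPKM (unadjusted p = 0.00801, limma adjusted p = 0.529). The targeted gene *Dhps* was measured at 2.38 and 2.59 FPKM in *DhpsΔLysm* and 3.57 and 3.11 FPKM in *Dhps fl/fl*, a log2 fold change of -0.41 (SE 0.13, limma adjusted p = 0.629). It was lower in both *DhpsΔLysm* libraries, in the direction of the labels, but transcripts remained in both.

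Markers of other cells were also measured in the sorted samples, and no listed marker was at 0 in all libraries. The 6 B cell markers summed to 62.8 and 65.41 FPKM in *DhpsΔLysm* and 40.31 and 49.38 FPKM in *Dhps fl/fl*; 6 of 6 had a log2 fold change above 0, 5 of 6 did not overlap and were higher in *DhpsΔLysm*, 4 had an unadjusted p under 0.05 by limma and 0 passed the adjustment. The shares of all genes were 52.2% above 0, 20.0% separated upward and 7.0% at an unadjusted p under 0.05, for this list and for the T cell and monocyte lists. The summed level of the 6 T cell markers was highest in *DhpsΔLysm* replicate 1, at 15.19 and 12.44 FPKM in *DhpsΔLysm* against 10.12 and 6.81 FPKM in *Dhps fl/fl*. *Trbc2*, a T cell receptor constant region, made up much of it, at 8.25 and 5.36 against 3.57 and 1.51 FPKM. Each marker was highest in that library except *Cd3d*, at 3.52 FPKM there and 4.33 FPKM in *DhpsΔLysm* replicate 2. Of these markers, 6 of 6 were above 0 and 3 of 6 separated upward. *Trbc2* was the one at an unadjusted p under 0.05 by limma (log2 fold change 1.47, adjusted p = 0.607). The 8 monocyte markers summed to 255.34 and 242.54 FPKM in *DhpsΔLysm* and to 211.03 and 219.64 FPKM in *Dhps fl/fl*, so that, as with *Mpo* and *Elane*, *DhpsΔLysm* replicate 1 was highest and *Dhps fl/fl* replicate 1 lowest; 7 of 8 were above 0, 5 of 8 did not overlap and were higher in *DhpsΔLysm*, and 2, *Ly6c2* and *Ccr2*, had an unadjusted p under 0.05 by limma, with 0 past the adjustment. Monocytes pass through a progenitor that also expresses *Mpo* and *Ms4a3*, and *Ly6c2* was at 192.22 and 183.75 FPKM in *DhpsΔLysm* against 157.95 and 160.82 FPKM in *Dhps fl/fl* (log2 fold change 0.24, limma adjusted p = 0.515).

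Granulocytes of other kinds were low. The summed level of the 6 eosinophil markers was highest in *DhpsΔLysm* replicate 1, at 12.06 and 10.5 FPKM in *DhpsΔLysm* against 8.52 and 8.78 FPKM in *Dhps fl/fl*. *Prg2*, the eosinophil major basic protein, was at 3.95 and 1.35 FPKM in *DhpsΔLysm* and 0.98 and 0.5 FPKM in *Dhps fl/fl*. The more abundant *Siglecf* and *Ccr3* were not highest in that library. *Siglecf* was at 4.88 and 5.53 against 4.49 and 5.62 FPKM, and *Ccr3* at 2.76 and 3.37 against 2.68 and 2.47 FPKM. The 7 basophil and mast cell markers listed summed to 17.29 and 19.45 FPKM in *DhpsΔLysm* and to 6.22 and 18.1 FPKM in *Dhps fl/fl*. This sum was lowest in *Dhps fl/fl* replicate 1, which was also the lowest library for *Mpo*, *Elane* and *Prtn3*. Of the 7, 1 was separated upward (*Mcpt8*, 20.0% of all genes) and 1 downward (*Ms4a2*). In either direction, 36% of all genes were separated. *Ms4a2* was highest in *Dhps fl/fl* replicate 1, at 1.14 FPKM. The 5 erythroid markers listed summed to 7.99 to 13.69 FPKM, also lowest in *Dhps fl/fl* replicate 1. The part of these cells in the levels of the primary granule genes was not tested. The 4 Y-linked genes summed to 7.07 and 8.07 FPKM in *DhpsΔLysm* and to 17.64 and 15.62 FPKM in *Dhps fl/fl*, without overlap, so sex and genotype cannot be told apart in these libraries.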

How the data were processed

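RNA from sorted splenic PMN-MDSCs of pups on postnatal day 7 was sequenced by the authors on an Illumina NovaSeq. The deposited values are FPKM per gene, which the authors computed with StringTie v2.1.6 and ballgown after Cutadapt v1.9 and HISAT2 v2.2.1; mm10 is the build in the submitters' processing notes. FPKM have no read counts, so depth was approximated from the spacing of low values, and one dominant gene changes the FPKM of all others. Groups were taken from the genotype labels.

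Genes averaging 0.1 FPKM or more were compared on log2(FPKM + 0.1) with limma 3.58.1 in R 4.3.3 (eBayes with trend, no replicate block), with Benjamini-Hochberg adjustment over 17948 genes and a threshold of 0.05. The test was checked on simulated data, where 47.4% of genes changed by 1 and 80.4% of those changed by 2 on the log2 scale were called, of 200 changed genes among 17948, and a mean of 12.8 unchanged genes was called as well. The labels share replicate numbers, but same-numbered libraries did not deviate together (correlation -0.0567), so they were not treated as pairs. Positions came from GENCODE M21, in which 28511 of 28585 identifiers were found, and promoters from RefSeq. Python 3.11.15 was used for the other steps.

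The primary granule genes and the marker lists were chosen with earlier results of these data known. Genes named beside them were those of highest mean level in a list, those at 0, those at an unadjusted p under 0.05, chromosomal neighbours, and the 5 nearest profiles among genes averaging 1 FPKM or more. Other list genes, such as *Prss57*, *Slpi*, *Cebpa*, *Kit* and *Ltf*, were named for their known roles, outside this rule and after their values were seen. Single values of some list genes are not reported here. Alternatives changed the pseudocount, the level filter, the scaling or the variance model, added a replicate block, or left out each library. The ratio without *Ms4a3* was added after seeing the data. No count-based test was made.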

Additional observations from a re-analysis of the deposited data

How the results depend on the processing

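With 4 libraries, no choice of pseudocount, filter, scaling, variance model or block brought a primary granule gene past the threshold: over 13 alternatives the lowest limma adjusted p of any of the 5 genes was 0.562. In the 9 alternatives that kept all libraries the log2 fold change ranged from 0.55 to 0.60 for *Mpo*, 0.53 to 0.57 for *Elane*, 0.50 to 0.56 for *Prtn3*, 0.21 to 0.32 for *Ctsg* and 0.05 to 0.08 for *Ms4a3*. Leaving out single libraries moved the median of the 5 genes between 0.17 and 0.92 and the log2 difference of the primary to secondary granule ratio between 0.04 and 0.61. That difference was 0.51 without *Ms4a3*, an alternative chosen after seeing the data. Of the 65 values of single genes, 2 reversed, both without *DhpsΔLysm* replicate 1. The log2 fold change of *Ctsg* was then -0.057 (limma adjusted p = 0.963), and ran from -0.057 to 0.67 over the fits without 1 library. That of *Ms4a3* was -0.046 (limma adjusted p = 0.924), and ran from -0.046 to 0.20. The cause was not tested.

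The count of all genes with an adjusted p under 0.05 by limma was 1, and it was 0 with a pseudocount of 0.01, 0 without a filter, 4 with genes averaging at least 1 FPKM, 2 after quantile normalization and 0 with the replicate block. Leaving out any 1 library gave 0 to 0, with 719 to 1609 genes at an unadjusted p under 0.05, and the block fit had 1082. The replicate block left the 5 log2 fold changes as they were and changed no call among them. Over all settings the median log2 fold change of all genes stayed between -0.02 and 0.03. Changes smaller than 1 on the log2 scale were not simulated, and 47.4% of genes changed by 1 were called with 2 libraries per genotype.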
